A study of Homo sapiens with 12 samples.

Results

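The rows described here are those of the imprinted domain on chromosome band 15q11: its small nucleolar RNA (snoRNA) clusters, their host gene SNRPN/SNURF and its imprinted protein-coding neighbours. They were chosen by the symbols in the array's platform annotation. A row was taken if it lists a symbol starting with SNORD116, SNORD115, SNORD107, SNORD64, SNORD108 or SNORD109, or the symbol SNRPN, SNURF, NDN, MAGEL2, MKRN3, UBE3A, NPAP1 or SNHG14. In all, 60 of 32321 rows met this rule, 45 with 1 symbol and 15 with several. There were 26 SNORD116 rows, which name 29 copies, and 26 SNORD115 rows, which name 42 copies. The other 8 were the SNORD64 row (which also lists PWAR5), the SNORD109A/SNORD109B row and the rows of SNRPN/SNURF, UBE3A, MKRN3, NPAP1, MAGEL2 and NDN. SNRPN is listed by 5 rows. Besides SNRPN/SNURF these are the row of SNORD116-4, that of SNORD116-14 to SNORD116-22, that of SNORD115-7 and a row of many SNORD115 copies. They were counted with their snoRNA cluster. None of the rows lists SNORD107, SNORD108 or SNHG14. Their 83 gene IDs were all found in RefSeq (GRCh38.p14), every one on chromosome 15.

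L-428 and L-1236 are established Hodgkin lymphoma cell lines, each a single line, so a difference between them is a difference between these lines and not between kinds of tumour. Each was transduced with a vector carrying the green fluorescent protein tGFP and EBF1, a transcription factor of early B-cell development, or with the vector carrying tGFP alone. After 8 days in culture the tGFP-positive cells were sorted and their RNA was measured on whole-transcript arrays. The 4 groups were L-428 tGFP/EBF1, L-428 tGFP, L-1236 tGFP/EBF1 and L-1236 tGFP, with 3 arrays each, which the labels call independent samples. All cells, controls included, carried a tGFP vector, and no untransduced cells were analysed here. What drives the transgene is not given in the sources used here.

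In the 15q11 domain, background knowledge holds that genes on the paternal chromosome are active and the maternal copies are silenced by DNA methylation at an imprinting centre that overlaps the SNURF/SNRPN promoter. A long transcript that runs through SNURF/SNRPN, SNHG14, is spliced, and its introns are trimmed into box C/D snoRNAs: SNORD107, SNORD64, SNORD108 and SNORD109A, then the tandem SNORD116 copies, the tandem SNORD115 copies and SNORD109B. The SNORD115 end of the transcript is known as largely restricted to neurons, where it runs antisense into UBE3A and silences the paternal UBE3A copy. Loss of the paternal domain, with SNORD116 at its core, underlies Prader-Willi syndrome, and loss of maternal UBE3A underlies Angelman syndrome.

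The SNURF/SNRPN start is shown because it overlaps the imprinting centre and its row separated the lines, and that of NDN because this imprinted gene of the same domain had overlapping arrays in the lines. Each window runs from 250 bases before to 50 bases after the start of the gene (RefSeq, GRCh38.p14, read 5′ to 3′ on the gene's strand). CG pairs, the bases that DNA methylation acts on, are in capitals.
SNURF/SNRPN, plus strand, chr15:24954737-24955036: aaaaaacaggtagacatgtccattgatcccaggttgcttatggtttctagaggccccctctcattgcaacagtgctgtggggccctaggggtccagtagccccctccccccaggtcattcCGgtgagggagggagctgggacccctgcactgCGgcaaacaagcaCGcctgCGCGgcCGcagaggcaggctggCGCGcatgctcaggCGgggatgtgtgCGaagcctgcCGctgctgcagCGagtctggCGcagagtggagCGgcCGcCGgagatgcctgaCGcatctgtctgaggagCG
NDN, minus strand, chr15:23687256-23687555: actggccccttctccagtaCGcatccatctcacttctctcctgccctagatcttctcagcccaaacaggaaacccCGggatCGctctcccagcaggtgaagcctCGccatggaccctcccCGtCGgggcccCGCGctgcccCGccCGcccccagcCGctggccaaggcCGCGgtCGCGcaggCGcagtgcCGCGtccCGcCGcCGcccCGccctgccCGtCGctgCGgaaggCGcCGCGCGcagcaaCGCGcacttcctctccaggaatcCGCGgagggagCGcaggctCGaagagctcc
The SNURF/SNRPN window holds 18 CG pairs and the NDN window 35, against a median of 14 over 35116 windows of the same length. A share of 44.5% of all windows holds at least 18, and 14.1% at least 35. The letters CCCNNGGG, a core of the EBF1 motif that reads the same on both strands, occur at 1 position in the SNURF/SNRPN window and at none in the NDN window, and 19.1% of all windows hold them. These are matches of letters and were not tested as binding sites. RefSeq starts SNHG14, the transcript that hosts the snoRNAs, further upstream, in a window (chr15:24823358-24823657) with 9 CG pairs and none of these letters. SNRPN starts in other windows too, and the table used has no windows for the snoRNA genes.

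The labels were checked on EBF1 itself. Its row, which also lists PDGFRB, averaged 12.96 ± 0.027 in L-428 tGFP/EBF1 and 8.45 ± 0.16 in L-428 tGFP, and 13.15 ± 0.11 in L-1236 tGFP/EBF1 and 7.17 ± 0.057 in L-1236 tGFP (deposited log2 signal, mean ± SD, n = 3). Array medians over all rows lay between 7.19 and 7.31 and lower quartiles between 6.28 and 6.41. The file gives no background signal, so a row below the lower quartile is here called dim. A fold against a dim row is therefore only a fold in signal. Signals of different rows are not compared with each other, since probes differ. Of 10 Hodgkin and B-cell marker rows, those of TNFRSF8, FSCN1, CCL17, IRF4, CD40 and PAX5 lay above the array median on all 12 arrays. The CD22 row did so on 6 arrays, CD79A on 3 and CD79B on 2, and that of the B-cell antigen MS4A1 was dim on all 12. With a 2-fold difference and no overlap between the lines, CD22 (-2.33), PAX5 (-1.67) and CD40 (-1.28) were lower in L-428. FSCN1 (1.13) was higher. Of 23 rows of T-cell, myeloid, stromal, epithelial, erythroid and neural markers, 3 differed 2-fold with no overlap between the lines, all lower in L-428: CD4, the endothelial marker PECAM1 and the synaptic protein SNAP25. By these limits 2.86% of all rows with a symbol were lower in L-428 and 4.37% higher. The mean over those 23 rows lay between 6.83 and 6.94 on the L-428 arrays and between 7.21 and 7.32 on the L-1236 arrays, and the mean over 5 neural rows between 6.89 and 7.01 in L-428 and between 7.41 and 7.61 in L-1236. Of those 5 rows, SNAP25 (-2.18) and SYP (-0.50) had the larger differences. RBFOX3 (-0.13), GFAP (-0.0093) and ELAVL4 (0.0058) differed little. The T-cell rows CD3D, CD3E and CD3G were below the array median on every array. The part of these markers in the results below was not tested. In bulk samples, fewer cells with an RNA and less of it per cell cannot be told apart.

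The difference between the lines was among the values by which these rows came to be chosen, so it is described here without a test. SNRPN/SNURF, the SNORD64 and SNORD109A/SNORD109B rows and 25 of 26 SNORD116 rows read higher on every L-428 array than on every L-1236 array, with EBF1 or with tGFP alone. How bright they were in L-428 varied: SNRPN/SNURF and 12 SNORD116 rows lay above the array median on all 6 L-428 arrays, the SNORD64 and SNORD109A/SNORD109B rows on none, and 4 SNORD116 rows were dim on all 12 arrays. Of the 20546 rows with a symbol, 11517 lay above the median on all 6 L-428 arrays and 2420 were dim on all 12. SNRPN encodes the SmN protein of spliceosomal particles, and SNURF a short protein read from the same messenger. The SNRPN/SNURF row read 8.81, 8.76 and 8.79 in L-428 tGFP/EBF1 and 8.95, 8.70 and 8.73 in L-428 tGFP. It read 6.32, 6.26 and 6.44 in L-1236 tGFP/EBF1 and 6.35, 6.23 and 6.45 in L-1236 tGFP. All 6 L-428 arrays lay above the array median and above all 6 L-1236 arrays, of which 4 were dim. Averaged over both vectors the difference was 2.45 on the log2 scale (SE 0.053), or 5.46-fold.

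The snoRNAs hosted between SNRPN and the SNORD116 copies showed the same order. SNORD64 is an orphan box C/D snoRNA, one with no established RNA target. Its row read 6.86, 6.89 and 6.81 in L-428 tGFP/EBF1, 7.15, 7.10 and 7.08 in L-428 tGFP, 5.52, 5.63 and 5.61 in L-1236 tGFP/EBF1 and 5.50, 5.64 and 5.52 in L-1236 tGFP. It was dim on all 6 L-1236 arrays and on none from L-428, and differed by 1.41 (2.66-fold). The row also lists the non-coding RNA PWAR5 of the same domain, and the RNAs cannot be separated. The row shared by SNORD109A and SNORD109B, which flank the repeated clusters on either side, read 6.97, 7.05 and 6.89 in L-428 tGFP/EBF1, 7.06, 6.74 and 6.94 in L-428 tGFP, 5.41, 5.48 and 5.36 in L-1236 tGFP/EBF1 and 5.40, 5.36 and 5.39 in L-1236 tGFP. Here too every L-428 array lay above every L-1236 array, with a difference of 1.54 (2.91-fold). Which of the pair gave the signal cannot be told from this row. PWAR6, a non-coding RNA between SNORD108 and SNORD109A in the RefSeq order, is not among the 60 rows and was looked up after the others were seen. It averaged 5.83 ± 0.17 and 5.88 ± 0.065 in L-428 with EBF1 and with tGFP alone, against 5.26 ± 0.052 and 5.27 ± 0.12 in L-1236, dim in both lines.

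The SNORD116 copies, orphan snoRNAs at the centre of the Prader-Willi region, held the largest differences. SNORD116-14 read 11.22, 11.24 and 11.22 in L-428 tGFP/EBF1, 11.49, 11.73 and 11.13 in L-428 tGFP, 5.10, 5.48 and 5.58 in L-1236 tGFP/EBF1 and 5.72, 5.06 and 5.66 in L-1236 tGFP. That is a difference of 5.90 (SE 0.11), or 59.9-fold, the largest positive difference among all 20546 rows with a symbol. SNORD116-15 read 12.02, 11.98 and 12.01 in L-428 tGFP/EBF1, 12.19, 12.46 and 11.80 in L-428 tGFP, 6.23, 6.35 and 6.29 in L-1236 tGFP/EBF1 and 6.46, 6.42 and 6.59 in L-1236 tGFP. Its difference of 5.69 (51.6-fold) was at rank 3. SNORD116-20 read 11.01, 11.06 and 11.09 in L-428 tGFP/EBF1, 11.20, 11.42 and 10.65 in L-428 tGFP, 5.997, 5.32 and 6.19 in L-1236 tGFP/EBF1 and 5.14, 5.53 and 5.66 in L-1236 tGFP. Its difference was 5.43 (43.2-fold), at rank 5. In these rows the lines were separated by several log2 units while arrays of 1 group spread by at most 0.46 (SD). SNORD116-15 was dim on 3 of 6 L-1236 arrays, and the other 2 rows on all 6.

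**Figure D1:**
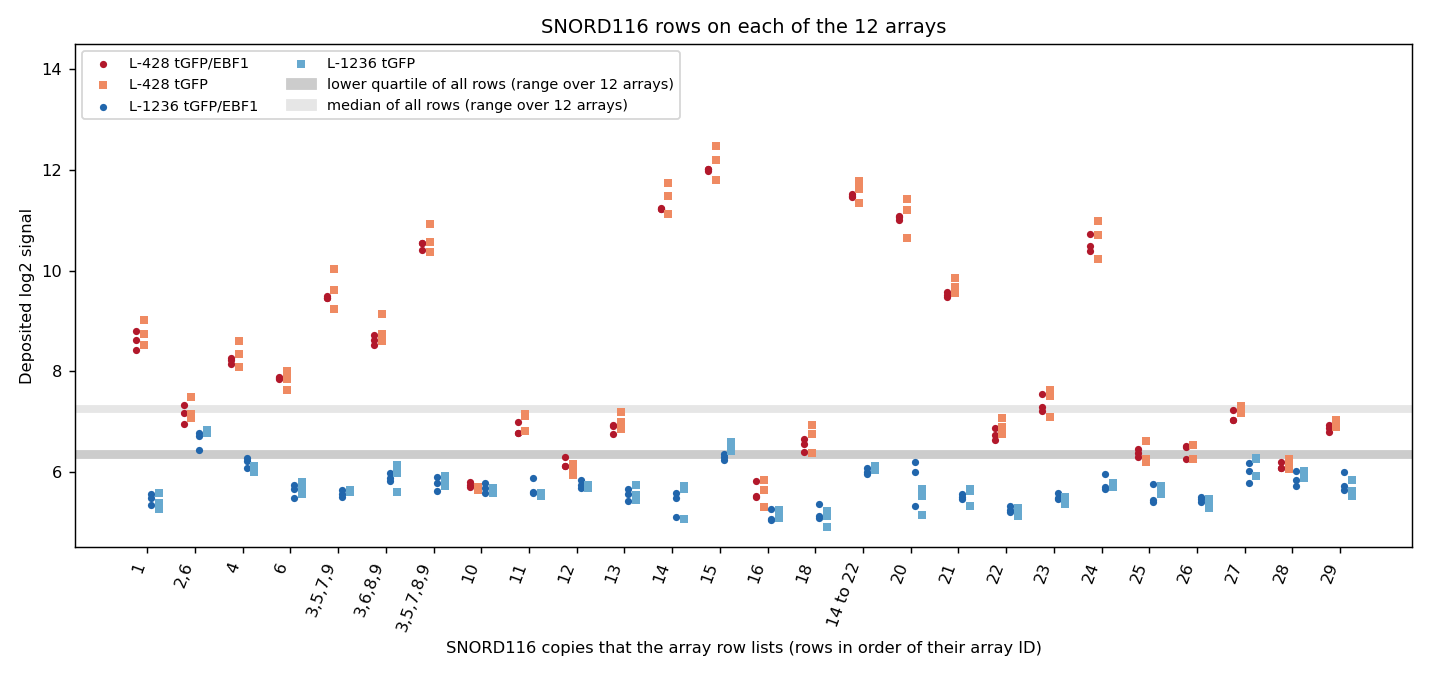
Deposited log2 signal of the 26 SNORD116 rows on each of the 12 arrays, by group; the grey bands give the range of the array lower quartile (6.28 to 6.41) and of the array median (7.19 to 7.31). L-428 arrays lie above L-1236 arrays in 25 rows, by very different amounts, and in 24 rows all L-1236 arrays lie below their lower quartile.

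Across the cluster, 25 of 26 SNORD116 rows were higher on every L-428 array than on every L-1236 array, where 22.7% of all rows with a symbol were. With at least a 2-fold difference as well, it was 19 of 26, beside 4.37% of all rows; none was lower, beside 2.86%. A difference of 16-fold or more was seen in 7 of 26, beside 0.0925% (19 rows) of all rows. These shares describe the choice of the rows and are not support for it. After the marker rows, the largest differences were in a row that lists SNORD116-14 to SNORD116-22 (5.49, 44.8-fold), in SNORD116-24 (4.82, 28.2-fold) and in a row of 5 copies, SNORD116-3, SNORD116-5, SNORD116-7, SNORD116-8 and SNORD116-9 (4.76, 27.2-fold). SNORD116-24 read 10.73, 10.39 and 10.48 in L-428 tGFP/EBF1, 10.71, 10.98 and 10.23 in L-428 tGFP, 5.97, 5.67 and 5.71 in L-1236 tGFP/EBF1 and 5.78, 5.78 and 5.71 in L-1236 tGFP. The row that lists SNORD116-14 to SNORD116-22 read 11.51, 11.46 and 11.48 in L-428 tGFP/EBF1, 11.61, 11.79 and 11.34 in L-428 tGFP, 5.99, 6.08 and 5.95 in L-1236 tGFP/EBF1 and 6.11, 6.12 and 6.04 in L-1236 tGFP. This row also lists the host gene SNRPN, and the RNAs cannot be separated. Copies are near-identical and several rows name the same copies, so the rows are not independent measurements of separate RNAs.

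Not every copy's row followed. SNORD116-10 was the exception to the separation: 5.69, 5.74 and 5.80 in L-428 tGFP/EBF1, 5.70, 5.67 and 5.64 in L-428 tGFP, 5.58, 5.68 and 5.79 in L-1236 tGFP/EBF1 and 5.58, 5.63 and 5.68 in L-1236 tGFP, a difference of 0.054. SNORD116-28 differed by 0.24, at 6.12 ± 0.069 and 6.16 ± 0.097 in L-428 with EBF1 and with tGFP alone, against 5.86 ± 0.15 and 5.94 ± 0.065 in L-1236. SNORD116-10, SNORD116-12, SNORD116-16 and SNORD116-28 were dim on all 12 arrays. At the other end, 12 of the 26 rows lay above the array median on all 6 L-428 arrays, beside 11517 of the 20546 rows with a symbol. No SNORD116 row lay above it on an L-1236 array.

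By sequence the copies are usually sorted into 3 groups, I (copies 1 to 9), II (10 to 24) and III (25 and on), and the rows were placed by the first copy they list. The median difference between the lines was 2.83 over the 7 group I rows, 1.75 over the 14 group II rows and 0.97 over the 5 group III rows. It reached 2-fold without overlap in 6 of 7, 11 of 14 and 2 of 5 rows, all higher in L-428, beside 4.37% of all rows. Group II held both ends of the range, from SNORD116-10 (0.054) to SNORD116-14 (5.90). Group III was the flattest: SNORD116-29 (1.18) and SNORD116-27 (1.10) had its largest differences, and SNORD116-25 and SNORD116-26 were each dim on 3 of 6 L-428 arrays. With so few rows, probes that differ between them and no test, the order of the groups is only a description.

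Summarised as 1 value per array, the mean over the 26 rows, SNORD116 signal was 8.12, 8.10 and 8.12 in L-428 tGFP/EBF1, 8.23, 8.38 and 7.999 in L-428 tGFP, 5.71, 5.72 and 5.69 in L-1236 tGFP/EBF1 and 5.70, 5.71 and 5.69 in L-1236 tGFP. L-428 exceeded L-1236 by 2.41 with EBF1 (5.32-fold) and by 2.50 with tGFP alone (5.66-fold). Because dim rows pull this mean down, it depends on which rows enter: with tGFP alone it was 1.83 as the median over rows and 3.88 over the 14 rows that reached the array median on at least 3 arrays. Those 14 rows passed only through L-428, where they are high, so the larger value follows from their selection.

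The second tandem cluster was a contrast to the first. SNORD115 copies, known to pair with the messenger of the serotonin receptor HTR2C, had 26 rows, and all 26 were dim on all 12 arrays, with values from 4.89 to 5.84. The mean over rows was 5.38, 5.35 and 5.39 in L-428 tGFP/EBF1, 5.38, 5.41 and 5.21 in L-428 tGFP, 5.28, 5.32 and 5.26 in L-1236 tGFP/EBF1 and 5.31, 5.27 and 5.24 in L-1236 tGFP. The differences between the lines ran from -0.070 to 0.22 (median 0.069), and none reached 2-fold. The largest were in SNORD115-41 (0.22), the only row of 26 without overlap of the arrays (beside 22.7% of all rows higher in L-428 and 17.2% lower), SNORD115-2 (0.14) and SNORD115-31 (0.14), and the smallest in SNORD115-35 (0.011) and SNORD115-14 (0.015). SNORD115-41 read 5.41, 5.26 and 5.43 in L-428 tGFP/EBF1 and 5.35, 5.39 and 5.29 in L-428 tGFP, against 5.21, 5.18 and 5.17 in L-1236 tGFP/EBF1 and 5.14, 4.98 and 5.16 in L-1236 tGFP. HTR2C, the receptor, was dim on all 12 arrays too. At this signal a difference in SNORD115 RNA was not detectable, which does not show that the RNA is absent.

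**Figure D2:**
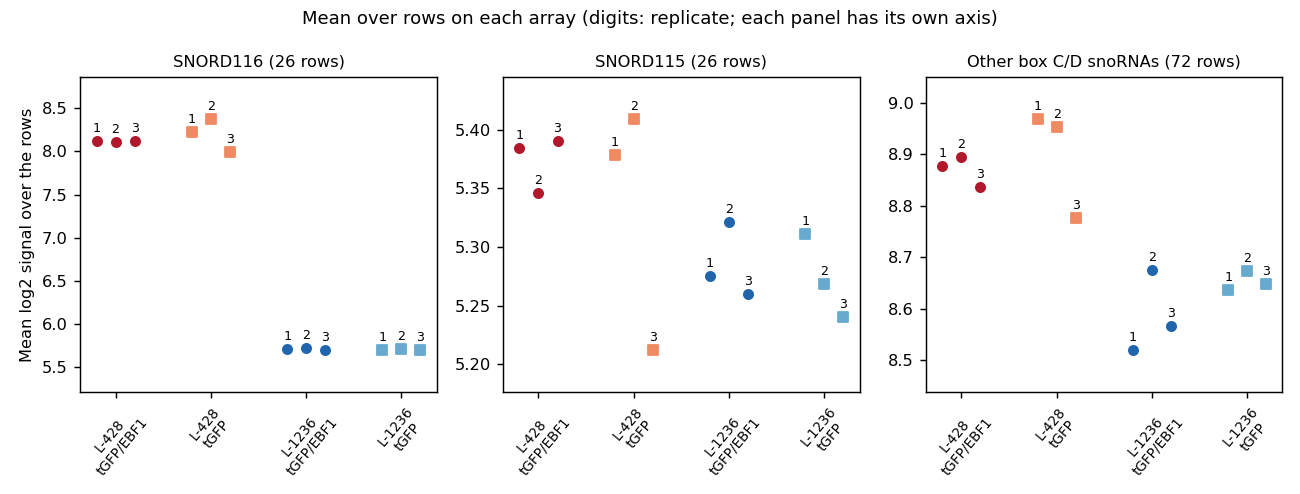
Mean log2 signal over the rows of a cluster on each array, for SNORD116, SNORD115 and the other box C/D snoRNAs, each panel on its own axis; digits give the replicate. The SNORD116 means lie between 7.999 and 8.38 in L-428 and between 5.69 and 5.72 in L-1236, and replicate 3 of L-428 tGFP is the lowest of its group in all 3 panels.

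UBE3A, a ubiquitin ligase at the far end of the domain, was well above the array median in both lines. It read 9.30, 9.13 and 9.24 in L-428 tGFP/EBF1, 9.36, 9.32 and 9.18 in L-428 tGFP, 8.48, 8.64 and 8.52 in L-1236 tGFP/EBF1 and 8.73, 8.62 and 8.65 in L-1236 tGFP. All L-428 arrays were higher, by 0.65 (SE 0.048), or 1.56-fold. In the paternally expressed genes on the other side of SNRPN, the arrays of the lines overlapped as deposited, for MKRN3 only narrowly. MKRN3, a zinc-finger ubiquitin ligase whose loss causes early puberty, read 7.17, 7.28 and 7.11 in L-428 tGFP/EBF1, 7.13, 7.03 and 7.31 in L-428 tGFP, 7.01, 6.92 and 6.89 in L-1236 tGFP/EBF1 and 7.03, 6.93 and 6.80 in L-1236 tGFP, a difference of 0.24 (SE 0.055). Its lowest L-428 array was at 7.027 and its highest L-1236 array at 7.033. As deposited, 2 of the 6 protein-coding rows had no overlap, both higher in L-428, beside 22.7% of all rows higher and 17.2% lower. After quantile normalization or median centring it was 3 of 6. The share of all rows was not taken under these scalings.

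MAGEL2, a regulator of retrograde protein sorting, read 6.61, 6.76 and 6.77 in L-428 tGFP/EBF1, 6.61, 6.69 and 6.73 in L-428 tGFP, 6.94, 6.56 and 6.76 in L-1236 tGFP/EBF1 and 6.89, 6.48 and 6.68 in L-1236 tGFP (difference -0.022). NDN encodes necdin, a growth suppressor of neurons, and read 6.35, 6.41 and 6.30 in L-428 tGFP/EBF1, 6.35, 6.38 and 6.30 in L-428 tGFP, 6.30, 6.21 and 6.32 in L-1236 tGFP/EBF1 and 6.42, 6.31 and 6.24 in L-1236 tGFP (difference 0.047). NPAP1, a nuclear pore associated protein, read 7.16, 7.31 and 7.21 in L-428 tGFP/EBF1, 7.11, 7.18 and 7.38 in L-428 tGFP, 7.51, 7.26 and 7.34 in L-1236 tGFP/EBF1 and 7.37, 7.33 and 7.27 in L-1236 tGFP (difference -0.12). The arrays of the lines overlapped in each of these 3 rows, and each lay near or below the array median in all groups.

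**Figure D3:**
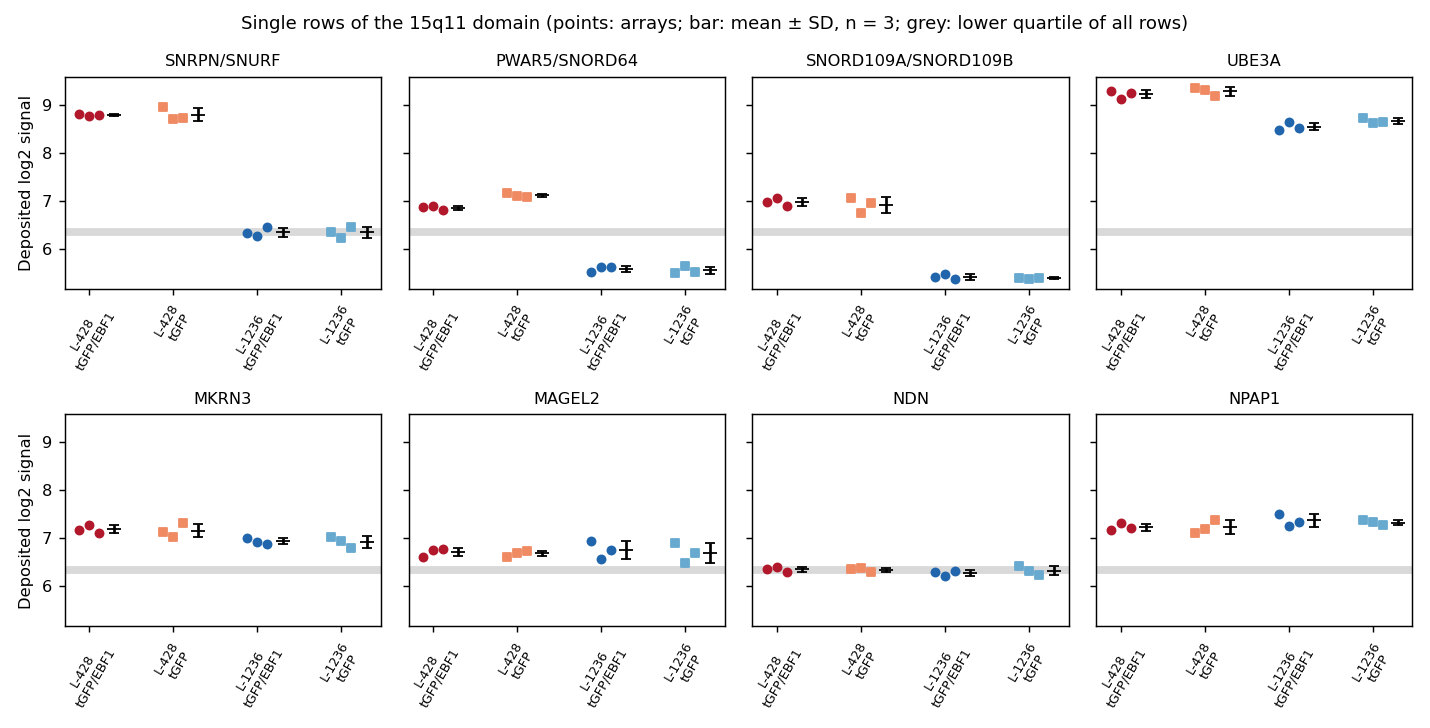
Deposited log2 signal of the 8 rows outside the tandem clusters; points are arrays and bars give mean ± SD (n = 3) for L-428 tGFP/EBF1, L-428 tGFP, L-1236 tGFP/EBF1 and L-1236 tGFP, with the lower quartile of all rows in grey. SNRPN/SNURF, PWAR5/SNORD64, SNORD109A/SNORD109B and UBE3A are higher on every L-428 array, while the arrays of both lines overlap in MKRN3, MAGEL2, NDN and NPAP1.

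The genes around the domain and other imprinted genes were set beside it. Of 9 rows of genes that flank it on 15q11-q13 and are not members, none was 2-fold higher in L-428. Of all rows, 4.37% were so with no overlap. The median difference of the 9 rows was -0.048. The farthest was CYFIP1, a regulator of actin assembly, at 8.16 in L-428 and 9.07 in L-1236 (difference -0.91). HERC2, a ubiquitin ligase beyond UBE3A, was at 8.57 in L-428 and 8.47 in L-1236. Of 19 rows of imprinted genes from other chromosome regions, only PEG10, a retrotransposon-derived gene, differed 2-fold with no overlap, at 11.27 in L-428 and 9.84 in L-1236 (difference 1.43). By these limits 4.37% of all rows were higher in L-428 and 2.86% lower. PHLDA2 and INPP5F were lower in L-428, by differences of -0.75 and -0.80, and MEST was higher, by 0.81. The 6 rows of the other imprinted snoRNA clusters, on 14q32, were dim on all 12 arrays, and their differences lay between -0.066 and 0.049.

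Box C/D snoRNAs from elsewhere in the genome, most of them guides for ribosomal RNA methylation, show how far the line difference is shared. Their 72 rows had a median difference of 0.23, beside -0.021 over all rows with a symbol, and a range from -0.76 to 2.10. With a 2-fold difference and no overlap, 6 of 72 were higher in L-428 and none lower, beside 4.37% and 2.86% of all rows. SNORD50A had the largest difference, at 9.79 in L-428 and 7.69 in L-1236. Of the proteins that build box C/D particles, the methyltransferase FBL was at 11.59 in L-428 and 10.92 in L-1236 and the core protein NOP58 at 10.72 and 10.31. Their part in the SNORD116 difference was not tested.

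**Figure D4:**
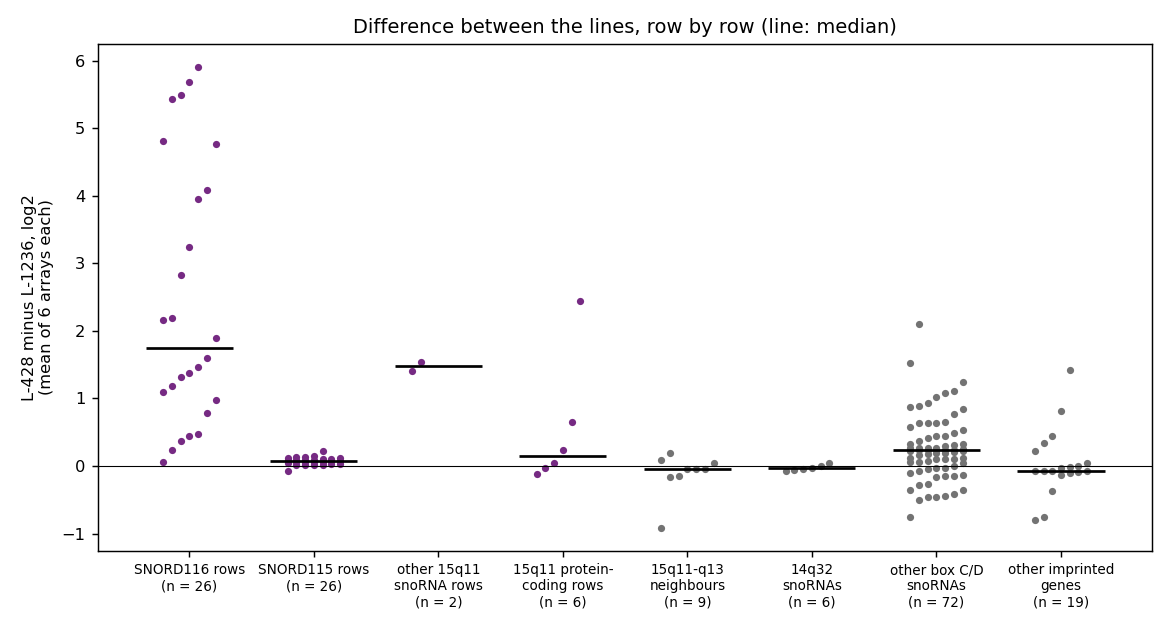
Difference between the lines for every row of 8 sets (mean of 6 L-428 arrays minus mean of 6 L-1236 arrays, log2); horizontal bars are set medians and purple marks rows of the 15q11 domain. SNORD116 rows run from 0.054 to 5.90, and the other box C/D snoRNA rows from -0.76 to 2.10.

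The study's own comparison asked what EBF1 changed in each line, and it does not use the line difference. Few rows of the domain passed the test in either line. In L-428, 1 of the 60 rows passed an adjusted p of 0.05 (limma on all 12 arrays, Benjamini-Hochberg over 20546 rows), beside 4.34% of all rows, and 3 had an unadjusted p under 0.05, beside 14.3% of all rows. No member reached the study's 2-fold limit together with that adjusted p, beside 0.0973% of all rows. Of the 60 rows, 30 were dim on all 12 arrays, as were 2420 of the 20546 rows with a symbol. For those 30 the count says little about whether EBF1 changes the RNAs. The row that passed was PWAR5/SNORD64, which fell by 0.26 on the log2 scale (SE 0.060, limma, adjusted p = 0.0156), and 1.72% of all rows passed in that direction. No member rose, where 2.62% of all rows did. All 3 tGFP/EBF1 arrays (6.81 to 6.89) lay below all 3 tGFP arrays (7.08 to 7.15), and all 6 lay below the array median. The call was lost on leaving out L-428 tGFP/EBF1 replicate 1 (adjusted p = 0.0581), L-428 tGFP/EBF1 replicate 3 (adjusted p = 0.104) or L-428 tGFP replicate 1 (adjusted p = 0.0624), and after median centring (limma, adjusted p = 0.0635). Over all alternatives the change lay between -0.28 and -0.24 and the adjusted p between 0.000981 and 0.104.

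No SNORD116 row passed in L-428. The marker rows changed by -0.23 (SNORD116-14, 95% interval -0.55 to 0.10), -0.15 (SNORD116-15, -0.38 to 0.080) and -0.042 (SNORD116-20, -0.44 to 0.35). The change was below 0 in 20 of 26 rows, where 48.1% of all rows were below 0, with a median of -0.12 beside 0.0037 over all rows and a smallest adjusted p of 0.372 (limma). The copies share their arrays and their sequence, so these signs are not 26 observations. The mean over the cluster was 8.12 ± 0.010 with EBF1 and 8.20 ± 0.19 with tGFP alone (SD, n = 3), a difference of -0.086 within the spread of the tGFP arrays.

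Within L-428 tGFP, replicate 2 (8.38) and replicate 3 (7.999) lay at the ends. Replicate 3 is also one of 2 arrays that stand apart from their groups over all rows, with an interquartile range of 2.28 against 2.49 and 2.47. It had the lowest value of its group in 24 of 26 SNORD116 rows and 22 of 26 SNORD115 rows, and replicate 2 had the highest in 20 of 26 SNORD116 rows. Over all 20546 rows with a symbol, replicate 3 was lowest in 9627 and replicate 2 highest in 5941. Without replicate 2 the cluster difference was 0.0025, 13 of 26 SNORD116 rows were below 0, and 1 member row, PWAR5/SNORD64, passed, beside 2.95% of all rows. Without replicate 3 the cluster difference was -0.19, and 3 member rows passed, beside 6.36% of all rows: PWAR5/SNORD64, SNORD116-15 (-0.32, limma, adjusted p = 0.0185) and the row of SNORD116-3, SNORD116-5, SNORD116-7 and SNORD116-9 (-0.35, limma, adjusted p = 0.0295). Without both arrays that stand apart, 8 rows passed, all lower and 6 of them SNORD116, beside 9.66% of all rows. With limma array weights, 12 passed, 11 of them lower and 10 of them SNORD116, beside 12.6%. Replicate 3 was also the lowest of its group in the mean over the other 72 box C/D snoRNA rows, at 8.78 against 8.97 and 8.95.

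The host row did not pass in either line. SNRPN/SNURF changed by -0.0045 in L-428 (95% interval -0.16 to 0.15) and by 0.00083 in L-1236 (-0.16 to 0.16). UBE3A changed by -0.062 in L-428 (limma, adjusted p = 0.843) and by -0.12 in L-1236 (limma, adjusted p = 0.344). SNORD109A/SNORD109B changed by 0.056 in L-428 (95% interval -0.099 to 0.21) and by 0.035 in L-1236 (-0.12 to 0.19). Changes of MKRN3, NPAP1, MAGEL2 and NDN lay between -0.044 and 0.065 in the lines. SNORD115 rows in L-428 had a median change of 0.056, and 5 of 26 were below 0.

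In L-1236, 0 of the 60 rows passed, beside 9.64% of all rows with a symbol (3.69% higher and 5.95% lower), and 1 row, SNORD115-3, had an unadjusted p under 0.05 (limma), beside 20.8% of all rows. None reached the adjusted p with a 2-fold change either, beside 0.146% of all rows. In this line 52 of the 60 rows were dim on all 6 arrays, as were 2816 of the 20546 rows with a symbol. The count therefore says little about whether EBF1 changes these RNAs. The SNORD116 mean was 5.71 ± 0.014 with EBF1 and 5.70 ± 0.0090 with tGFP alone (SD, n = 3), and the change was below 0 in 14 of 26 rows, where 46.6% of all rows were. The largest was SNORD116-20 (0.39, 95% interval -0.0034 to 0.79, limma, adjusted p = 0.246). Its 3 tGFP/EBF1 arrays read 5.997, 5.32 and 6.19 and its tGFP arrays 5.14, 5.53 and 5.66, so the groups overlapped. Without L-1236 tGFP/EBF1 replicate 2 it was 0.65 and passed (limma, adjusted p = 0.0153), though still on dim signal. With EBF1 the L-1236 cluster means (5.69 to 5.72) stayed below all those of L-428 (7.999 to 8.38).

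The difference between the EBF1 effects in L-428 and L-1236 was itself tested. Of the 60 rows, 0 passed (limma, adjusted p of 0.05), beside 5.16% of all rows (3.38% above 0 and 1.79% below), and 3 had an unadjusted p under 0.05, beside 16.7% of all rows. The difference was below 0 in 17 of 26 SNORD116 rows, where 50.8% of all rows were. PWAR5/SNORD64 came closest, with a change of -0.26 in L-428 and 0.032 in L-1236 and a difference of -0.29 (95% interval -0.47 to -0.11, limma, adjusted p = 0.0529). It passed without L-428 tGFP replicate 3 (adjusted p = 0.0323), without L-1236 tGFP/EBF1 replicate 1 (adjusted p = 0.0345) and without both (adjusted p = 0.0124). It also passed after quantile normalization (adjusted p = 0.0431), with trend and robust variance (adjusted p = 0.0378) and with array weights (limma, adjusted p = 0.00393). The other alternatives left it short of the limit, with an adjusted p of up to 0.151.

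**Figure D5:**
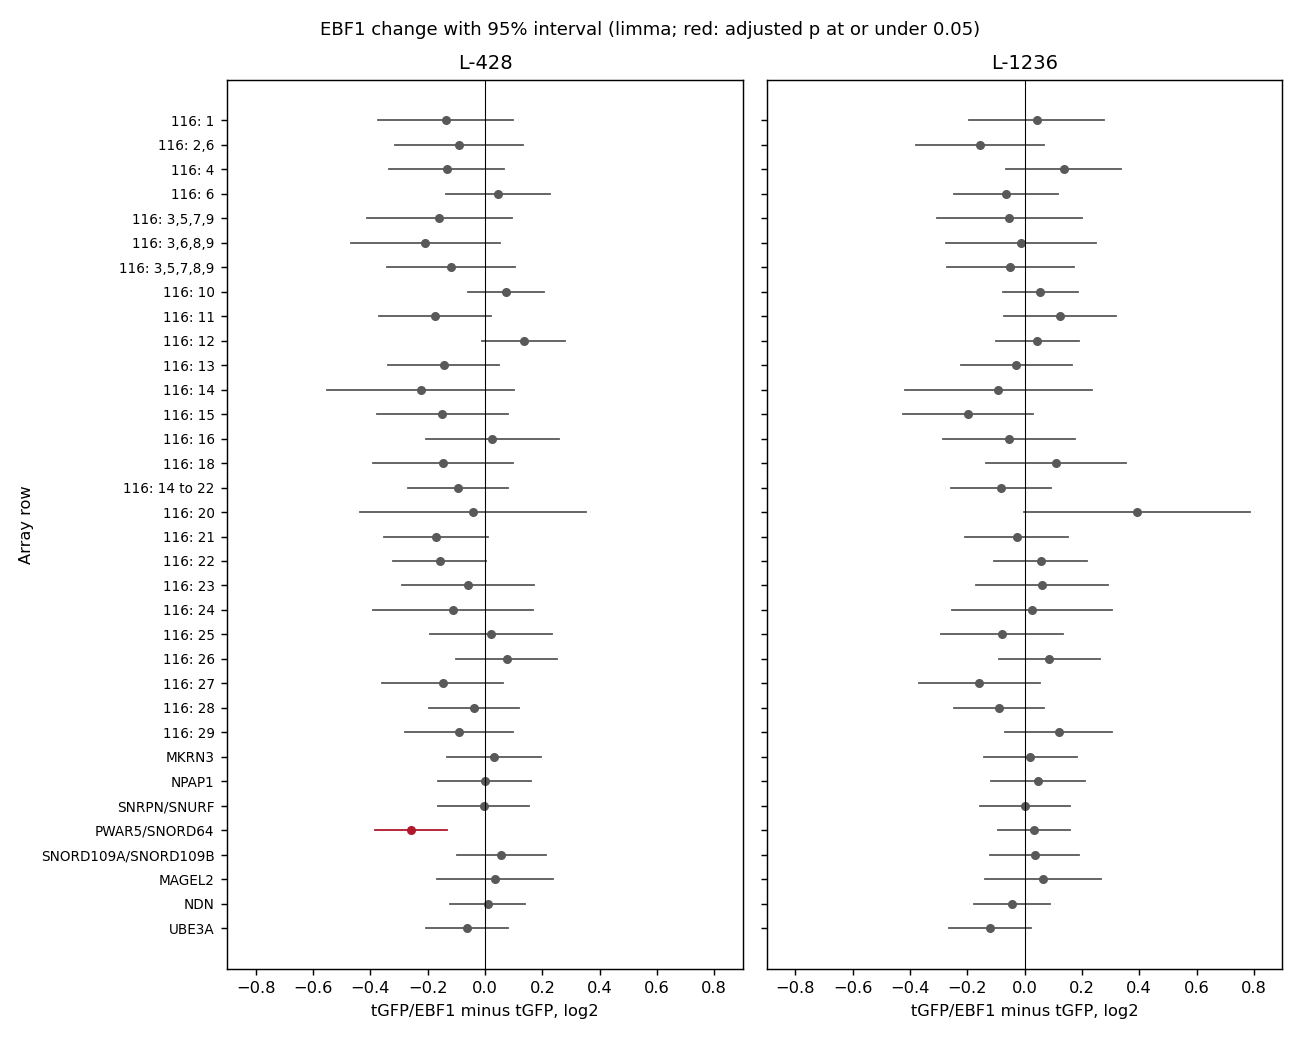
Change with EBF1 (tGFP/EBF1 minus tGFP, log2) with its 95% interval for the 26 SNORD116 rows and the 8 rows outside the tandem clusters, in L-428 on the left and L-1236 on the right. Red marks an adjusted p at or under 0.05 (limma), which PWAR5/SNORD64 alone reached, in L-428; in L-1236 the largest change, in SNORD116-20, has the widest interval.

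The other lists were read in the same fits. Of the 9 flanking rows, 1 passed in L-428, NIPA2, a magnesium transporter gene, at 11.05 ± 0.041 with EBF1 and 10.77 ± 0.17 with tGFP alone (limma, adjusted p = 0.048), and 0 in L-1236. Of all rows, 4.34% passed in L-428 and 9.64% in L-1236. Of 72 other box C/D snoRNA rows, 3 fell in L-428 and 9 fell in L-1236, beside 1.72% and 5.95% of all rows. None rose, beside 2.62% and 3.69%. SNORD30, a guide RNA hosted by SNHG1, fell in both lines, by 0.45 in L-428 (limma, adjusted p = 0.00115) and by 0.26 in L-1236 (limma, adjusted p = 0.0322). SNORD28, hosted by the same gene, fell by 0.36 in L-428 (limma, adjusted p = 0.0487) and by 0.35 in L-1236 (limma, adjusted p = 0.0318).

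Of 10 rows of snoRNA particle and assembly proteins, not all of them specific to box C/D, 0 passed in L-428. In L-1236, NAF1 (-0.33, limma, adjusted p = 0.035) and PIH1D1 (-0.30, limma, adjusted p = 0.00378), both assembly factors, fell. None of the 7 rows of Sm core proteins passed in either line. The same held for a list of 9 rows made up of HTR2C and partners of MAGEL2, NDN and UBE3A. Among 17 factors that maintain or read imprints, UHRF1, which recruits the maintenance DNA methyltransferase, rose in both lines, by 0.37 in L-428 (limma, adjusted p = 0.0028) and by 0.31 in L-1236 (limma, adjusted p = 0.00536). Of the 19 imprinted genes elsewhere, 0 passed in L-428, and in L-1236 PHLDA2 rose by 0.28 (limma, adjusted p = 0.00492) while PEG10 (-0.30, limma, adjusted p = 0.0435) and ZDBF2 (-0.44, limma, adjusted p = 0.00137) fell. Of all rows, 4.34% passed in L-428 (2.62% higher and 1.72% lower) and 9.64% in L-1236 (3.69% higher and 5.95% lower). The counts are to be read beside these shares, and the lists were not tested as sets.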

How the data were processed

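Signal was measured on 12 Affymetrix whole-transcript arrays, 1 per sample. Per the labels' protocols, RNA of sorted cells was amplified and biotin-labelled. The authors deposited log2 values, 1 per array and row; log2 was inferred from their range (up to 14.3), and no source used here gives the summarization, background step, normalization or array build. Array medians and quartiles differ slightly, and no further scaling was applied. The number of arrays limits precision. The p-values measure the spread between samples that the labels call independent.

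Rows were named from the platform annotation: of 32321, 19158 have 1 symbol, 1388 several and 11775 none. The 20546 with a symbol were fitted in limma 3.58.1 under R 4.3.3 (lmFit, eBayes, 4 group means, no block, 8 residual and 9.98 prior degrees of freedom), with Benjamini-Hochberg adjustment. The adjusted p limit was 0.05, and the study's own limit adds a 2-fold change. Cluster means were averages of rows per array. The members, lists and named rows were chosen with earlier results of these data known; named were the host and single snoRNA rows, the markers, the largest 3 and smallest 2 line differences in each tandem cluster, members that passed, and up to 4 rows per list. All other copies named were picked after their values were seen. The fits were tested on simulated arrays of 20546 rows with 50 changed rows per fold: 74% (L-428) and 72% (L-1236) of 1.25-fold changes were recovered, and all of those of 1.5-fold or more. Noise was normal and independent between rows and arrays, with no array standing apart. Changes were added in full to rows picked at random, dim ones included, so these rates may not hold for the members. Replicate numbers did not pair the samples: same-number correlations of deviations were 0.23, -0.21 and -0.020 in L-428 and 0.28, -0.074 and 0.19 in L-1236. No pair of arrays was identical, and correlations within groups lay between 0.992 and 0.997. Alternatives were other scalings, filters, row sets, variance settings, a replicate block, array weights, fits of 1 line and leaving out arrays. Promoter windows and letters came from RefSeq tables; figures used Python 3.11.15 and matplotlib 3.10.9.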

Additional observations from a re-analysis of the deposited data

How the results depend on the processing

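No member passed the adjusted p with a 2-fold change as deposited (0 rows in L-428, beside 0.0973% of all rows). In L-428, 1 member passed as deposited, beside 4.34% of all rows, and 0 after median centring (2.42%). After the filter on dim rows 0 of 17 members passed (7.43% of the rows kept), and 0 of 45 among rows with 1 symbol (4.67%). Both of these settings drop the PWAR5/SNORD64 row. With array weights 12 members passed (12.6% of all rows), and 8 without both arrays that stand apart (9.66%). Leaving out 1 array gave 0 to 3 (2.25% to 6.36%). In L-1236, 4 of 60 passed with array weights, where 25.2% of all rows did, and leaving out 1 array gave 0 to 1 (6.3% to 14.1%). For the difference of effects, 1 passed after quantile normalization (9.08% of all rows) and 1 with trend and robust variance (5.25%). It was 6 with array weights (15.5%) and 3 without both arrays (9.23%), and leaving out 1 array gave 0 to 4 (3.27% to 7.09%). The causes were not tested beyond the rows dropped.

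Over all rows, 20 passed with a 2-fold change in L-428 and 30 in L-1236, 892 and 1981 at the adjusted p alone, and leaving out 1 array gave 18 to 22 and 29 to 36. For the difference of effects 1061 rows passed, 1865 after quantile normalization, 599 after median centring, 676 over every row, 3194 with array weights and 1897 without both arrays, of which 784 were higher and 1113 lower against 694 and 367 as deposited; leaving out 1 array gave 672 to 1457. With the replicate block 1 member passed in L-428 (PWAR5/SNORD64, limma, adjusted p = 0.027), beside 3.56% of all rows. None passed in L-1236 (8.63%) or for the difference (4.31%). The block changed no other call of a named row.

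The SNORD116 cluster change in L-428 was -0.086, and -0.19 without both arrays; leaving out 1 array gave -0.19 to 0.0025, and -0.0033 to 0.011 in L-1236. The SNORD116 line difference with tGFP alone was 2.50, and 3.88 under the dim filter (which keeps SNORD116 rows only through their L-428 signal, so the larger value follows from it), 2.25 on rows with 1 symbol, 1.83 as the median over rows and 2.60 without both arrays (leaving out 1 array, 2.41 to 2.60); with EBF1 it was 2.41, 3.77, 2.17 and 1.67 under the first 3 of these (2.40 to 2.42). The SNORD115 change in L-428 was 0.040, and -0.021 without both arrays (-0.021 to 0.078), and in L-1236 -0.0055 to 0.031. The SNORD115 line difference with tGFP alone was 0.060, and 0.12 without both arrays (0.022 to 0.12), and with EBF1 0.088, and 0.16 after median centring (0.075 to 0.11). For the 63 EBF1 results of 21 named rows, 1293 of 1314 settings kept their side of the adjusted p; 4 lost and 17 gained a call, and no called change turned. Signs of changes that passed in neither setting turned in 103.

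Dim signal sets the main limit: all SNORD115 rows and 24 of 26 SNORD116 rows in L-1236 lay under the array lower quartile. Folds there are folds in signal, with no background to set them against. Near-identical copies, rows that list several genes and 3 arrays per group limit the rest.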
